A study of Mus musculus with 6 samples.

Results

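The genes described here carry glucose into the cell, break it down to pyruvate and lactate, and decide whether pyruvate enters the mitochondrion, with the enzymes of the pentose phosphate route and of glycogen beside them. They were taken from a list of 40 genes by symbol: a gene counted as found where the platform annotation gave a probe set that symbol alone, and its brightest such probe set, by mean log2 value over the 6 arrays, stood for it. By that rule 36 of the 40 were found, out of 18193 genes tested in all. Gapdh was found on control probe sets only, which stay outside the test over genes, so 35 genes were tested. Gpi1, Pfkfb1, Eno1 and G6pdx are not analysed here.

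All 6 arrays came from the uterine horns of ovariectomized female mice, 8 weeks old, of mixed background and of genotype GATA2 f/f, where f is the usual sign for a conditional (floxed) copy of a gene. No recombinase is named in the labels, and since every group carries the allele it is not itself compared. Oil, a usual carrier of steroid hormones, was given to the group of 3 called oil here, and P4, the standard abbreviation of progesterone, to the group of 3 called P4. The labels give neither dose nor time after treatment, nor do they state that each array of a group is a different animal. The p-values therefore reflect the spread among these 6 samples only, part of which may be technical.

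Glucose enters cells through carriers of the GLUT family and is trapped by hexokinases. Flow through glycolysis is set largely at phosphofructokinase, whose strongest activator is made by the PFKFB enzymes, and pyruvate is then either reduced to lactate or oxidised through the pyruvate dehydrogenase complex, which PDK kinases switch off and PDP phosphatases switch on. In the uterus, endometrial glucose uptake and glycogen are known to respond to ovarian steroids, and progesterone prepares the stroma for decidualization, a change that is known to draw on glucose.

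The hybridisation controls, RNAs added at known amounts, read lower on the P4 arrays than on the oil arrays (log2 difference -0.13, exact two-sided permutation p 0.1, the smallest possible). Array medians ran from 117 to 123 intensity units, and the deposited values were used without further scaling. Summed marker intensities of the expected uterine tissues were 39443 to 45267 for 7 smooth muscle genes and 39835 to 52548 for 8 stromal genes. The 9 epithelial genes summed to 14336 to 17173 after oil and 8961 to 15329 after P4, with overlap. The 8 granulocyte genes measured differed most between arrays, with sums of 980, 1035 and 11626 after oil and 905, 8034 and 16045 after P4. The 6 endothelial genes summed to 4679 to 5391 after oil and 4317 to 4494 after P4, without overlap. The 3' to 5' signal ratio of the Gapdh control transcript, a measure of RNA length, ran from 1.53 to 1.84 after oil and from 1.5 to 2.37 after P4, with the highest value on P4 replicate 1. In bulk tissue fewer cells of a type and less RNA per cell cannot be told apart, and this holds for every difference given here.

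After P4, 6 of the 35 tested genes rose and 7 fell at a limma adjusted p under 0.05, adjusted over all genes. The rises were Pfkfb3, Slc2a3, Pdk3, Slc2a1, Slc16a1 and Gys1, and the falls were Pdk4, Aldoc, Pdk2, Pygb, Pdk1, Slc2a8 and Pdp1. The called genes were thus 37.1% of those tested, where 13% of all genes were called (6.08% higher and 6.94% lower). Their median log2 difference was 0.08, beside -0.01 over all genes, and the median size of a difference was 0.28 beside 0.13. In 18 of the 35 the P4 arrays all lay on 1 side of the oil arrays, 51.4% where 31.8% of all genes did so. None of the 35 was among the dimmest 30% of genes. The shares over all genes include the 5457 genes of that dim part, so they are not matched for brightness. With that part left out of the fit, 1211 genes were called higher and 1393 lower, beside 1106 and 1262 with it kept. More genes were thus called out of fewer, so their share was above the 13% given here and below. The members still gave 6 higher and 7 lower. With scaling to the hybridisation controls the split of the members turned to 7 higher and 1 lower. Over all genes it turned to 1823 higher and 637 lower, and the median difference shifted by 0.11 log2. With the replicate number as a block it was 10 higher and 8 lower for the members. Calls over all genes then also grew, to 1690 higher and 2111 lower.

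**Figure D1:**
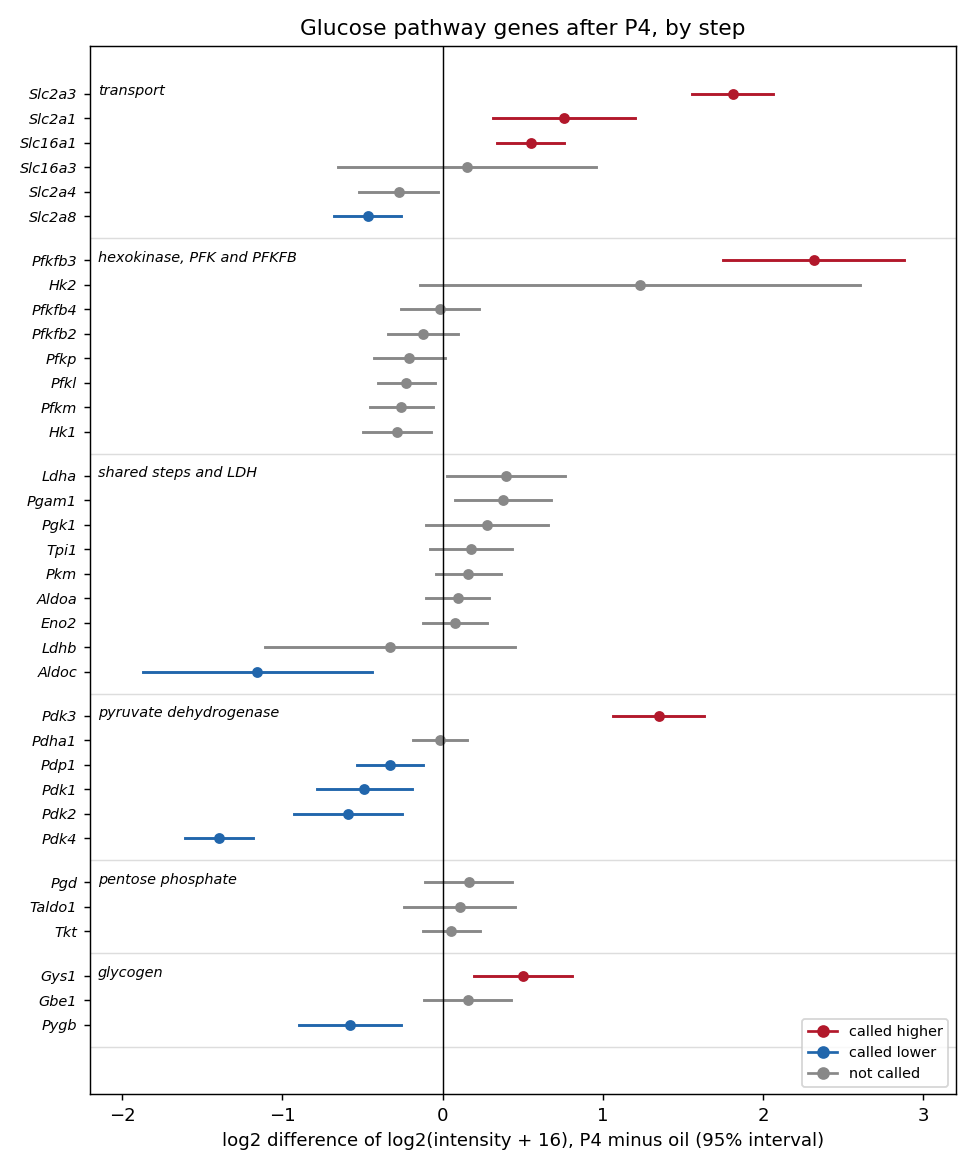
Log2 difference of P4 minus oil on the log2(intensity + 16) scale (x axis) for the 35 tested genes, grouped by step, with 95% intervals from limma and 3 arrays a group. Red points were called higher, blue points lower and grey points not called; the transporters and the pyruvate dehydrogenase genes hold 9 of the 13 calls.

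**Figure D2:**
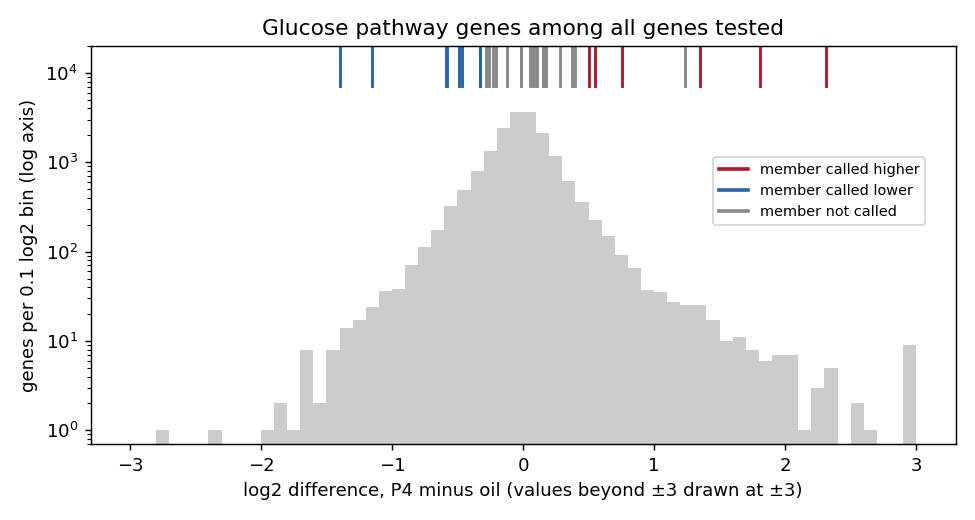
Histogram of log2 differences over all 18193 genes (grey, log y axis), with the 35 glucose genes as ticks along the top edge. The ticks of Pfkfb3 at 2.32 and Slc2a3 at 1.81 lie in the sparse right tail, and that of Pdk4 at -1.39 in the left tail.

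Of the 6 transporters, 3 rose after P4 and 1 fell, where 6.08% of all genes rose and 6.94% fell. Slc2a3, which encodes the high-affinity glucose carrier GLUT3, read 825, 797 and 695 intensity units after oil and 3142, 2523 and 2598 after P4. Every P4 array was far above every oil array, a 3.51-fold difference (log2 difference 1.81 ± 0.11 SE, adjusted p 0.000421), and 0.236% of all genes had a larger one. Its probe set is of the kind that can match related transcripts, as is a further one with a log2 difference of 1.77. The remaining probe sets of the gene are dim, at 33 and 36.4 after oil. With probe sets open to such matches left out, the one at 36.4 stood for the gene, and its difference of 0.41 was not called (adjusted p 0.111). The one at 33 rose by 0.46 (limma adjusted p 0.0322 in a fit over all named probe sets). Granulocytes also use this carrier, and their marker sums were 980, 1035 and 11626 after oil and 905, 8034 and 16045 after P4 for replicates 1, 2 and 3; their part in the Slc2a3 difference was not tested. Within each array Slc2a1 was lower relative to Slc2a3 after P4 (log2 difference -1.05, exact two-sided permutation p 0.1). That sign turned (0.35) without the probe sets that can match related transcripts.

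Slc2a1 encodes GLUT1, the carrier that supplies basal glucose uptake in most cells. It read 509, 647 and 705 after oil and 1397, 856 and 965 after P4. All P4 arrays were higher, but they spread widely, with P4 replicate 1 well above the other 2 (1.69-fold, log2 0.76 ± 0.19, adjusted p 0.039). The other 2 probe sets of the gene gave 0.79 and 0.66. The call ended when oil replicate 1 (adjusted p 0.128), oil replicate 2 (0.109) or the third P4 array (0.0706) was left out. Without P4 replicate 1, the array with the highest 3' to 5' ratio, the difference was 0.55 (adjusted p 0.0495).

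Slc16a1 encodes the monocarboxylate carrier MCT1, which moves lactate and pyruvate across the membrane. It read 343, 330 and 369 after oil and 476, 554 and 521 after P4, without overlap (1.46-fold, log2 0.55 ± 0.09, adjusted p 0.0081). Slc16a3, which encodes the lactate exporter MCT4, read 90.6, 78.2 and 182 after oil and 86.5, 104 and 205 after P4. Its groups overlapped, and the 95% interval of its log2 difference, from -0.65 to 0.96, allows a rise as large as that of Slc16a1.

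Slc2a8 encodes GLUT8, a carrier held mainly on membranes inside the cell. It read 275, 328 and 308 after oil and 212, 218 and 215 after P4, a fall of every P4 array below every oil array (log2 -0.47 ± 0.09, adjusted p 0.0147). The call was lost without oil replicate 2 (adjusted p 0.0689) and with scaling to the hybridisation controls (0.0508). Slc2a4, the insulin-responsive carrier GLUT4 of muscle and fat, was at 236 ± 24.3 after oil and 192 ± 16.5 after P4 (SD, n = 3), and its log2 difference of -0.27 ± 0.11 was not called (adjusted p 0.147, or 0.0482 with the mean of its probe sets).

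Among the genes for phosphorylating glucose and fructose phosphate, Pfkfb3 was the 1 gene of 8 called without the replicate block (12.5%, beside 13% of all genes), with 1 higher and 3 lower at an unadjusted p under 0.05. It encodes the PFKFB enzyme whose kinase activity dominates, so that it makes the activator of phosphofructokinase. Pfkfb3 read 248, 245 and 420 after oil and 2072, 1373 and 1263 after P4. The lowest P4 array was above the highest oil array by a wide margin, and the difference was 4.98-fold (log2 2.32 ± 0.24, adjusted p 0.00161). Of all genes 0.0989% had a larger difference. Its other probe set, dim at 54.8 after oil, rose by 0.40 (adjusted p 0.0254 in a fit over all named probe sets).

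Pfkfb3 has 2 promoter windows here, 1 at each of 2 RefSeq start sites, shown because this was the largest rise. Part of the first window and all of the second lie within the gene's RefSeq bounds, which reach to position 11554071. The 250 bases before each start are printed 5′ to 3′ on the gene's strand (build GRCm38.p6), with matches to the searched motifs in capitals. The motifs were ACGTG, the core of the hypoxia response element, CACGTG, the E-box, which contains the former on both strands, TGTTCT, the hexamer of the progesterone response element, and the full palindromic progesterone response element.
Pfkfb3 at chr2:11553930-11554179, minus strand: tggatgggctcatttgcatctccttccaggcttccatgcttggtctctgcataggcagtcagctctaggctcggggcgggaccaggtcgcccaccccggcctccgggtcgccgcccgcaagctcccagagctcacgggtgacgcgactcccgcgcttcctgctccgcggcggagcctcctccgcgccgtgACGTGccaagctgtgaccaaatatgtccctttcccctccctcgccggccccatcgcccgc
Pfkfb3 at chr2:11502091-11502340, minus strand: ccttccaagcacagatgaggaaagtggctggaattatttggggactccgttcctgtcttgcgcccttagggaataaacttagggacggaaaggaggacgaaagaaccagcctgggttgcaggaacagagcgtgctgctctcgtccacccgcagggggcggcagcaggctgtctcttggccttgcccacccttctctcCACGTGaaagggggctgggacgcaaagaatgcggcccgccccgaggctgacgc
The first window holds ACGTG 60 bases before the start and the second holds CACGTG 53 bases before it. Counting matches on either strand in windows of 300 bases (250 before and 50 after a start), ACGTG occurred for 17 of 32 matched members (53.1%) and for 26.1% of 14452 tested genes with a window. CACGTG occurred for 6 of 32 members (18.8%, against 10.2%) and TGTTCT for 9 of 32 (28.1%, against 17%). The full palindrome was in none of the 32 and in 2 of the 14452. Of the called members with a window 7 of 11 held ACGTG: Pfkfb3, Pdk3, Slc16a1 and Slc2a1, which rose, and Pdk2, Aldoc and Pygb, which fell. TGTTCT was held by 1 of the 11, Pdk1. Of the members not called 10 of 21 held ACGTG and 8 of 21 held TGTTCT. A match is a match of letters only, and several genes have more than 1 window.

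The other control-step genes did not pass. Hk2, the inducible hexokinase, read 170, 158 and 809 after oil and 468, 603 and 1137 after P4. The oil arrays differed by more than the group means did, so the log2 difference of 1.23 ± 0.59 was not called (adjusted p 0.238). It was called with the replicate number as a block (adjusted p 0.00795) and without oil replicate 3 (1.97, adjusted p 0.0137). Hk1, the constitutive hexokinase, was at 1264 ± 117 after oil and 1033 ± 59 after P4 (log2 -0.28 ± 0.09, adjusted p 0.0867).

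The phosphofructokinase subunit genes lay slightly lower on all P4 arrays without passing. Pfkl differed by -0.23 ± 0.08 and Pfkm by -0.26 ± 0.08 (limma adjusted p 0.1 and 0.0895, the latter 0.0466 without the dimmest 50% of genes), and Pfkp by -0.21 ± 0.10 (0.226). Pfkfb2 (-0.12 ± 0.10) and Pfkfb4 (-0.01 ± 0.11), close relatives of Pfkfb3, also did not pass. Set against them within each array, Pfkfb3 was higher relative to Pfkfb2 by 2.44 log2 and relative to Pfkfb4 by 2.33, without overlap between groups (exact two-sided permutation p 0.1 for each, the smallest that 3 against 3 arrays can give).

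Among the steps shared by all glycolytic cells calls were about as frequent as over all genes (11.1% beside 13%): of 9 tested genes for isomerase, aldolase, kinase, mutase, enolase and lactate dehydrogenase steps, 0 rose and 1 fell by limma, with 2 higher and 1 lower at an unadjusted p under 0.05. Gapdh, from its 3' control probe set, read 4720, 4813 and 5861 after oil and 4643, 5034 and 6502 after P4, with overlapping groups (log2 difference 0.06, exact two-sided permutation p 0.7). Its middle and 5' control probe sets had the opposite sign, with differences of -0.06 and -0.09 and overlapping groups. Aldoa (0.10 ± 0.08), Eno2 (0.08 ± 0.09), Tpi1 (0.18 ± 0.11), Pgk1 (0.28 ± 0.16) and Pkm (0.16 ± 0.09) were not called. Pkm, the pyruvate kinase gene, was at 1167 ± 88.7 after oil and 1306 ± 89.3 after P4.

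Ldha, the lactate dehydrogenase subunit that favours lactate formation, read 4358, 4091 and 5734 after oil and 5402, 5734 and 7508 after P4 (log2 0.39 ± 0.16, adjusted p 0.158). Pgam1, phosphoglycerate mutase, read 1633, 1459 and 1876 after oil and 2016, 1926 and 2539 after P4, all P4 arrays being higher (0.38 ± 0.13, adjusted p 0.104). With the replicate block both were called (adjusted p 0.00557 for Ldha and 0.00793 for Pgam1), as were Pgk1 (0.0279) and, as lower, Ldhb (0.0242). Pgam1 was also called with scaling to the hybridisation controls (0.50, adjusted p 0.0307). Ldhb, the subunit that favours lactate use, was at 3126 ± 1127 after oil and 2566 ± 1243 after P4 (-0.33 ± 0.34, adjusted p 0.626). The within-array ratio of Ldha to Ldhb was higher after P4 by 0.72 log2 without overlap (exact two-sided permutation p 0.1).

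Aldoc, an aldolase best known from brain, was the member of this group that fell. It read 282, 289 and 479 after oil and 107, 113 and 241 after P4. All P4 arrays were lower, and the array numbered 3 was the highest in each group (log2 -1.15 ± 0.31, adjusted p 0.047). The call was lost without any 1 array other than P4 replicate 3 (adjusted p up to 0.152), with quantile normalization (0.0511), with scaling to the hybridisation controls (0.0521) and with moderation without trend (0.0505) or robust (0.115). Its other probe set, at 51.3 after oil, had a difference of -0.08 that did not pass.

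Arrays numbered 3 were the highest of both groups for 12 of the 35 genes (34.3%, against 23.2% of all genes), among them Hk2, Pgk1, Pgam1, Pkm, Ldha, Ldhb and Aldoc. Both arrays numbered 3 also had the highest granulocyte marker sum of their group, and the part of those cells in these values was not tested. Within each number, Hk2 was higher after P4 by 1.38, 1.83 and 0.48 log2 for numbers 1, 2 and 3. Ldha was higher by 0.31, 0.49 and 0.39 for those numbers.

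**Figure D3:**
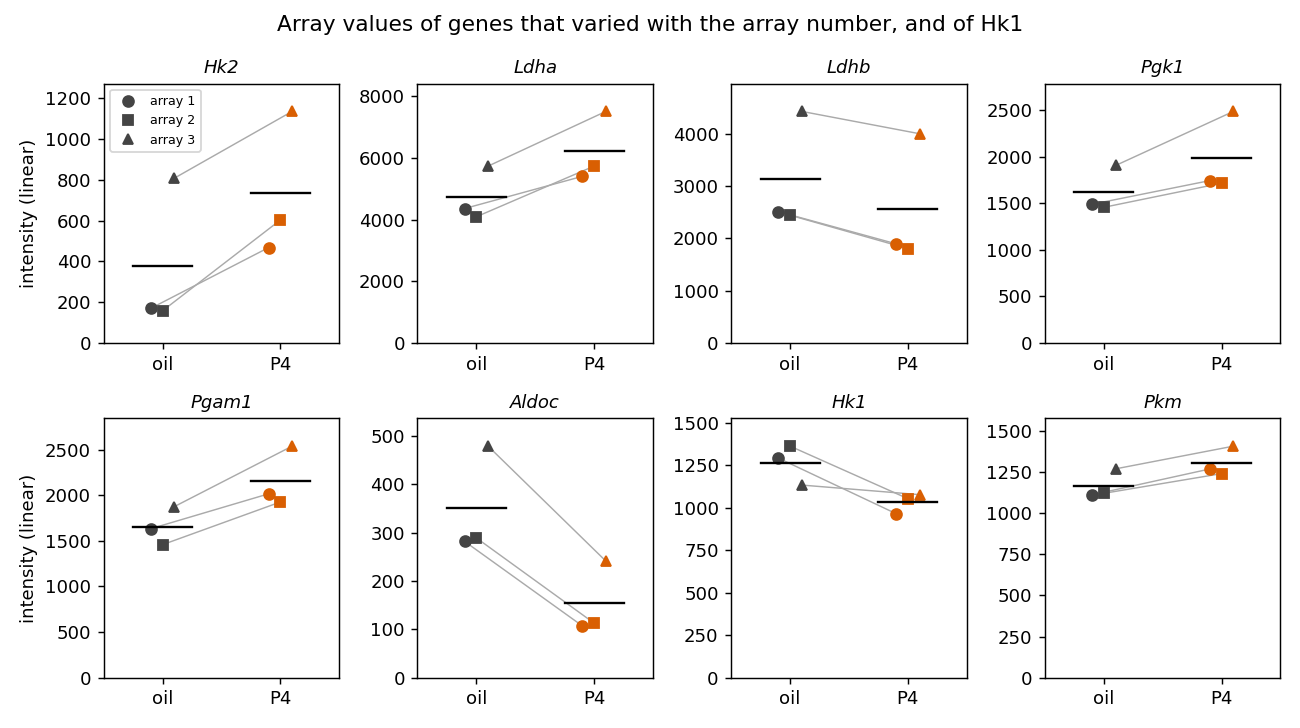
Linear intensity (y axis, from 0) on each array after oil and P4 for 7 genes with the array numbered 3 highest in both groups and for Hk1, with grey lines joining arrays of the same number and bars at group means of 3 arrays. For Hk2 and Ldhb the oil array numbered 3 stands well apart from the other 2, and the lines run upward for Hk2 and downward for Ldhb.

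In the control of pyruvate dehydrogenase 5 of 6 genes were called, beside 13% of all genes: Pdk3 rose, and Pdk4, Pdk2, Pdk1 and Pdp1 fell. The calls of Pdk2, Pdk1 and Pdp1 were each lost in at least 5 of 6 fits with 1 array left out. Pdk4, a kinase induced by fasting and by fatty acids that blocks pyruvate oxidation, read 254, 281 and 299 after oil and 95.6, 99.6 and 92.3 after P4. The groups were far apart relative to their spread (log2 -1.39 ± 0.09, adjusted p 0.000491). Pdk3, a kinase of the same family, went the opposite way, with 207, 199 and 246 after oil and 656, 577 and 505 after P4. Its lowest P4 array was above its highest oil array by more than the spread of either group (2.55-fold, log2 1.35 ± 0.12, adjusted p 0.00093).

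Pdk2, the most widely expressed kinase of the family, read 193, 206 and 182 after oil and 158, 112 and 104 after P4, without overlap (log2 -0.59 ± 0.14, adjusted p 0.0351). Pdk1, a kinase known to be induced by hypoxia, read 270, 380 and 316 after oil and 228, 234 and 207 after P4 (-0.49 ± 0.13, adjusted p 0.0434). All 4 probe sets of Pdk1 gave negative differences, from -0.51 to -0.41. Pdp1, a phosphatase that reactivates the complex, read 346, 370 and 315 after oil and 276, 272 and 259 after P4 (-0.33 ± 0.09, adjusted p 0.0481). Pdha1, the catalytic subunit gene and the target of these enzymes, was at 2631 ± 97.8 after oil and 2603 ± 147 after P4 (-0.02 ± 0.07, adjusted p 0.927).

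The 3 smaller calls of this step did not hold when single arrays were left out. Pdp1 was lost whichever array was left out (adjusted p up to 0.177), Pdk2 without any 1 array but P4 replicate 1 (up to 0.132) and Pdk1 without any 1 array but oil replicate 1 (up to 0.132). With scaling to the hybridisation controls Pdk1 (0.111), Pdk2 (0.0629) and Pdp1 (0.216) also missed the threshold, while Pdk4 kept a difference of -1.28 (0.000468). Quantile normalization and median centring also ended the calls of Pdk1 (0.0583 and 0.0553) and Pdp1 (0.073 and 0.0737).

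Ratios within an array moved little with that scaling, that of Pdk4 to Pdk3 from -2.74 to -2.75. The log2 ratio of Pdk4 to Pdk3 differed by -2.74 between P4 and oil, and the ratios of Pdk4 to Pdk1, Pdk2 and Pdp1 by -0.91, -0.80 and -1.06. The ratios of Pdk1 and Pdk2 to Pdk3 differed by -1.84 and -1.94. Each of these had no overlap between groups and an exact two-sided permutation p of 0.1, the smallest possible here, so no pair could pass (adjusted p 0.142 over 17 pairs of relatives compared, 12 of them without overlap). With the arrays paired by number the smallest possible p is 0.25. Pdk1 and Pdk2 did not separate (0.10 log2, exact p 0.5).

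The promoter windows of the kinase that rose and the kinase that fell most are set side by side (250 bases before the RefSeq start, GRCm38.p6, 5′ to 3′ on the gene's strand, the same motifs in capitals).
Pdk3 at chrX:93832151-93832400, minus strand: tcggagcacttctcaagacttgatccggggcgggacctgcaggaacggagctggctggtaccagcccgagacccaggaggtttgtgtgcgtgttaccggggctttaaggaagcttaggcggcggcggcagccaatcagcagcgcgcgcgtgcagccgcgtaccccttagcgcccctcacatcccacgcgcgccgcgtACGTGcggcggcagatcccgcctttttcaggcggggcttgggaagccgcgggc
Pdk4 at chr6:5496279-5496528, minus strand: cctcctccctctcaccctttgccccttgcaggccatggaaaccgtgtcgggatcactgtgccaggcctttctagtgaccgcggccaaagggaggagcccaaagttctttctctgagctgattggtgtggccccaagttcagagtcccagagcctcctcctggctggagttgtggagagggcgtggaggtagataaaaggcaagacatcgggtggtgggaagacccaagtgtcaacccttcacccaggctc
The Pdk3 window holds ACGTG 53 bases before the start. None of the 4 motifs occurs in the Pdk4 window, which says only that these letters are not in this stretch. A window of Pdk2, a kinase that also fell, holds CACGTG, and so ACGTG, 126 bases before its start.

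**Figure D4:**
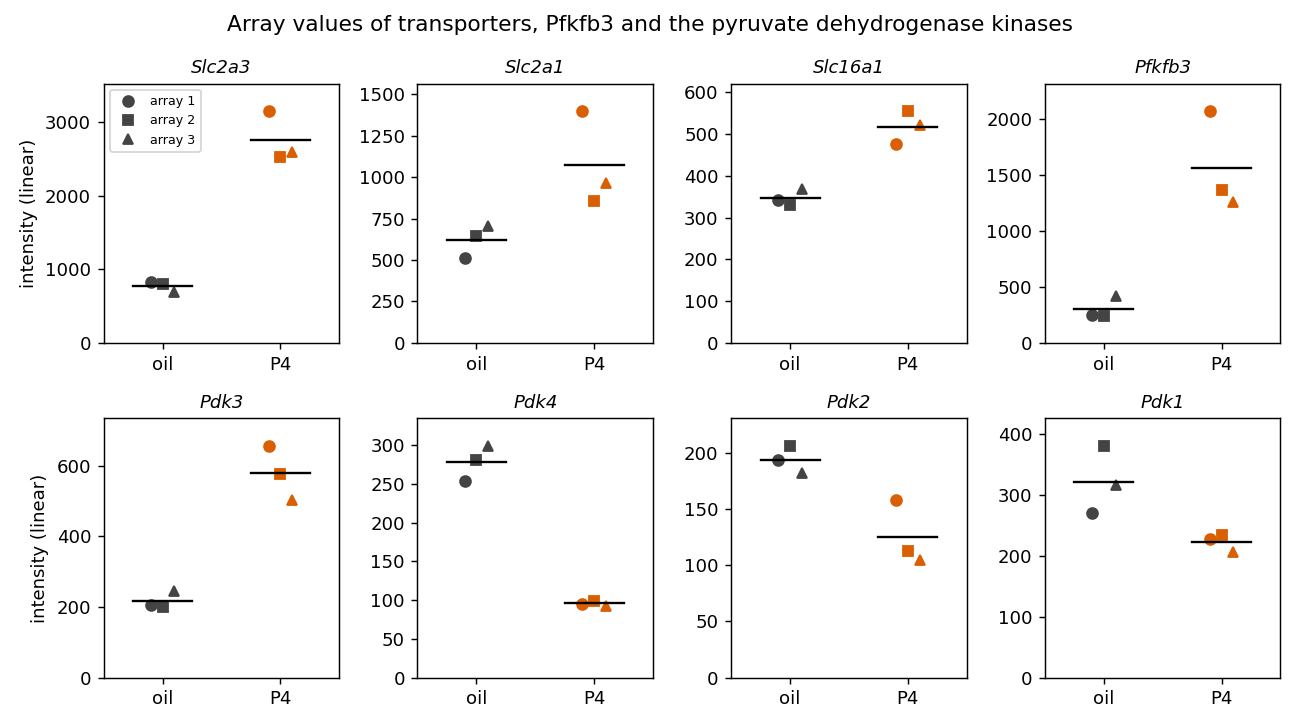
Linear intensity (y axis, from 0) on each of the 3 oil and 3 P4 arrays for the transporters called higher, Pfkfb3 and the 4 pyruvate dehydrogenase kinases, with bars at group means and symbols for the array number. The groups do not overlap in these panels; Pdk3 is higher after P4 and Pdk4, Pdk2 and Pdk1 are lower.

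The 3 tested genes of the pentose phosphate route, which makes NADPH and ribose, gave 0 calls by limma, beside 13% of all genes. Of these 3, 0 had an unadjusted p under 0.05. So few genes cannot show whether the route as a whole changed. Pgd was at 1136 ± 118 after oil and 1276 ± 173 after P4 (log2 0.16 ± 0.12, adjusted p 0.455) and Tkt at 4581 ± 311 and 4759 ± 277 (0.06 ± 0.08, adjusted p 0.741). Taldo1 differed by 0.11 ± 0.15. The 95% interval of the Tkt probe set used, from -0.12 to 0.23, leaves room only for a small change of its signal. The interval for Taldo1 runs from -0.24 to 0.45. Other probe sets of Tkt gave 0.32 ± 0.17, at 158 after oil, and 0.02 ± 0.10, at 1543, and neither passed.

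Of the 3 glycogen enzyme genes, the synthase gene was called higher and the phosphorylase gene lower, where 13% of all genes were called. Gys1, glycogen synthase, read 205, 199 and 193 after oil and 348, 287 and 238 after P4 (1.41-fold, log2 0.50 ± 0.13, adjusted p 0.0443). Pygb, the brain form of glycogen phosphorylase, read 1384, 1586 and 1192 after oil and 1060, 932 and 784 after P4 (-0.58 ± 0.14, adjusted p 0.0324). Neither gene had overlapping groups, as was so for 31.8% of all genes. Gbe1, the branching enzyme, differed by 0.16 ± 0.12 (adjusted p 0.467). Gys1 lost its call without any 1 array but the third after P4 (adjusted p reaching 0.139) and with the mean of its probe sets (0.0662), the other of which gave 0.09. Pygb lost it without either of oil replicates 1 and 2 or of P4 replicates 2 and 3 (up to 0.122), and on the hybridisation control scale (0.0823).

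**Figure D5:**
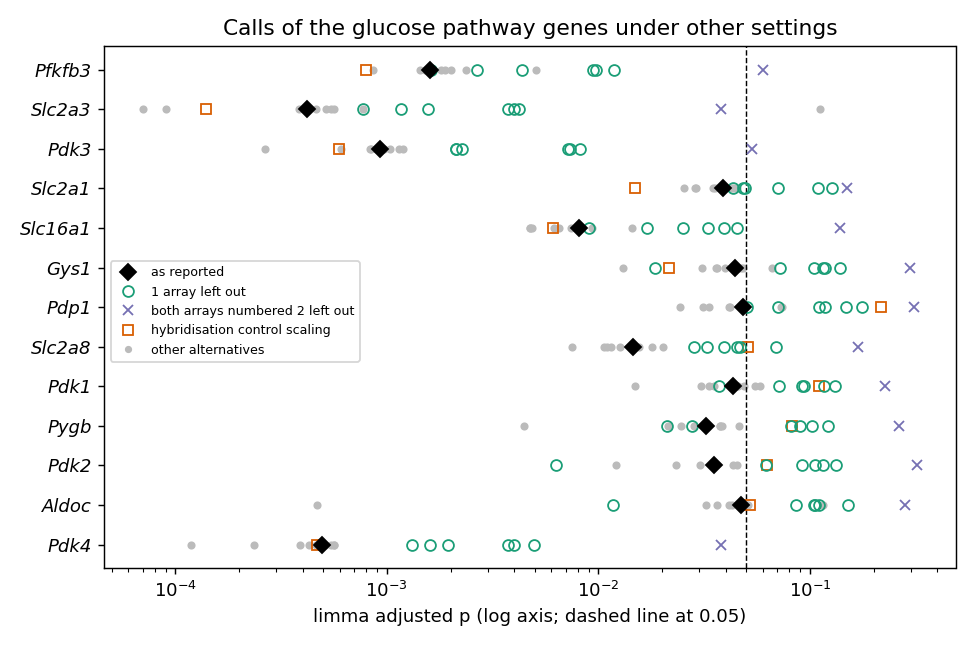
Limma adjusted p (x axis, log scale, dashed line at 0.05) of the 13 called genes as reported and under each alternative. Slc2a3, Pfkfb3, Pdk3, Pdk4 and Slc16a1 stay left of the line with any 1 array left out, the grey point of Slc2a3 at 0.111 being the fit without probe sets open to cross-hybridisation; the crosses, with both arrays numbered 2 left out, lie left of it for Slc2a3 and Pdk4 only.

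Of the 13 calls, 5 held with each array left out in turn: Slc2a3, Pfkfb3, Pdk3, Pdk4 and Slc16a1. Leaving out 1 array left between 5 and 9 called members in all. With both arrays numbered 2 left out 2 members remained, Slc2a3 and Pdk4 (adjusted p 0.0379 each), while Pdk3 (0.053) and Pfkfb3 (0.06) lay just above the threshold. Most calls over all genes were lost then too, with 99 higher and 72 lower remaining. Where a tested gene had further probe sets, 4 of the 39 differed in sign from the one used, and 0 of these 4 reached an unadjusted p under 0.05 by limma.

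Beyond these members, 67 other genes of glucose handling were tested, and 3 rose and 5 fell (11.9%, close to the 13% of all genes). Txnip, an inhibitor of glucose uptake, fell from 9089 ± 730 to 5454 ± 768 (-0.74 ± 0.11, adjusted p 0.00531). Ugp2, which makes the UDP-glucose used for glycogen, rose from 1496 ± 111 to 2320 ± 264 (0.62 ± 0.10, adjusted p 0.00769). Pgm2l1, of the phosphoglucomutase family, fell by 0.93 on the log2 scale (adjusted p 0.00108), and Ppp1r3b, which brings a phosphatase to glycogen, by 0.65 (0.0103). The remaining calls, named after their values were seen, were Mlx (0.61 ± 0.08) and Pgm2 (0.55 ± 0.10), higher, and Pck2 (-0.52 ± 0.11) and Mlxip (-0.30 ± 0.08), lower. Pgm2 and Ppp1r3b lost their calls without oil replicate 2 (0.0518 and 0.0548), Pck2 without any 1 oil array (up to 0.0902) and Mlxip whichever array was left out (up to 0.128).

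Many glycolytic genes are known targets of the hypoxia response, so its other targets and factors were counted too: of 22 tested, 3 rose and 3 fell (27.3%, beside 13% of all genes). Hif1a, the oxygen-regulated transcription factor, rose from 2566 ± 150 to 4361 ± 729 (log2 0.75 ± 0.12, adjusted p 0.0071). P4ha2, a collagen prolyl hydroxylase, rose by 1.68 ± 0.16 (adjusted p 0.00108) and Higd1a, a mitochondrial protein, by 1.15 ± 0.17 (0.00527). Mxi1, an antagonist of MYC, fell from 1373 ± 71.7 to 632 ± 39.4 (-1.10 ± 0.08, adjusted p 0.00055). Kdm3a (-0.70 ± 0.10) and Ndrg1 (-0.48 ± 0.11) also fell and were named after their values were seen. Ndrg1 lost its call when either of oil replicates 1 and 2 or the third P4 array was left out (up to 0.109), on the hybridisation control scale and with the mean of its probe sets. Vegfa, a common readout of hypoxia, had a difference of 0.33 ± 0.20 (adjusted p 0.373).

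Markers of fat and muscle were read beside Slc2a4 and Pdk4, which those tissues express. The 6 adipocyte genes summed to 1801, 1894 and 1093 after oil and 716, 1111 and 541 after P4, and 1 of them, Lipe, was called lower. Adipoq, which defines adipocytes, read 363, 349 and 187 after oil and 92, 200 and 52.1 after P4 (adjusted p 0.0672). On the same arrays Pdk4 read 254, 281 and 299 after oil and 95.6, 99.6 and 92.3 after P4. The part of fat cells in the Pdk4 difference was not tested. The 10 skeletal muscle genes summed to 1371 to 1579 after oil and 2129 to 3664 after P4, with Acta1 alone called. Their log2 differences were positive for 5 and negative for 5 (median 0.03), and 7 were among the dimmest 30% of genes. Ckm was at 97.3, 89.1 and 103 after oil and 94.8, 92.4 and 101 after P4.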

How the data were processed

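Total RNA was turned into biotin-labelled cRNA and hybridised to mouse expression arrays, per the labels' protocols. The authors deposited a linear intensity for each probe set; their summary and scaling steps were not given in the sources used here. Of 45101 probe sets, 34945 had 1 gene symbol in the platform annotation, 932 had several and 9160 are unnamed here. The 64 control probe sets, unnamed ones and those with several symbols were left out of the gene tests.

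Intensities became log2(intensity + 16), without filter or further normalization, and fold changes on that scale understate changes of dim genes. Where several probe sets shared a symbol, that of highest mean log2 value was kept. The comparison of P4 and oil used limma (version 3.58.1, under R 4.3.3), a linear model with trended empirical Bayes moderation over all 18193 genes, without covariates, with Benjamini-Hochberg adjustment and a threshold of 0.05. The fit was also run on simulated data with noise drawn independently for each gene and array. Such data hold no deviation shared by arrays of the same number, so they cannot show its effect on the calls. The files hold no detection calls, and the number of arrays limits the precision. Pairs of related genes were compared by their log2 ratio within each array. Figures were drawn with matplotlib 3.10.9.

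Replicate numbers 1 to 3 occur after oil and after P4. Arrays sharing a number deviated together from their group means, with correlations of 0.53, 0.13 and 0.64 for numbers 1, 2 and 3, all over 0.1, which meets the limit set for pairing. The reported calls come from the fit without the number, and values with it as a block stand beside a result where they change the call. The labels do not state it, and the second oil array was closer to the first P4 array (0.29).

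Members, lists and tests were chosen with earlier results of these data known. All members are accounted for: called ones with every array's value, of the others those with the lowest p in each step and reference points of the pathway, and up to 4 called genes of each further list by size of difference; the remaining called genes of those lists were named after their values were seen. Marker lists gave calls as follows: stroma 1 lower, skeletal muscle 1 higher, adipocyte 1 lower, endothelium 1 lower (Tek), and epithelium, smooth muscle and granulocyte 0 by limma, with 2, 0 and 0 genes at an unadjusted p under 0.05. Lists of erythroid cells (3 genes, sums from 203 to 232) and of macrophages and leukocytes (6 genes, 3114 to 8614) gave 0 calls by limma, and 0 genes had an unadjusted p under 0.05. Promoter sequences are from RefSeq, build GRCm38.p6, where 32 of the 35 tested members had a window. Alternatives were other scalings (quantile, median, hybridisation controls), probe set choices, filters on dim genes, pseudocounts of 1 and 50, other moderation settings, the replicate block, and arrays left out.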

Additional observations from a re-analysis of the deposited data

How the results depend on the processing

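No called gene changed its sign under the 19 alternatives; signs that turned belonged to genes that were not called. Higher and lower genes numbered 1823 and 637 on the hybridisation control scale (74.1% higher against 46.7%), 1690 and 2111 with the replicate block, and 99 and 72 with both arrays numbered 2 left out. Leaving out 1 array gave 485 to 1075 higher and 508 to 1227 lower genes, 4 to 6 higher and 1 to 4 lower members, and a member median from -0.016 to 0.092. Lower members numbered 4 with quantile normalization and 1 with the hybridisation controls, where the member median was 0.20. The replicate block gave 10 higher members and ended no call of a member; without both arrays numbered 2 there were 1 higher and 1 lower. The other glucose pathway genes gave 6 higher and 3 lower with the hybridisation controls, 5 higher with the mean of probe sets, 9, 10 and 9 lower without the dimmest 30%, without the dimmest 50% and with robust moderation, 12 lower with the block, 0 and 0 by limma without both arrays numbered 2, and 2 to 3 higher and 2 to 7 lower with 1 array out. The causes were not tested.

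Signs turned for Pfkfb4 (0.016 with quantile normalization, 0.00095 with median centring, 0.11 with the hybridisation controls), Pdha1 (0.11 with those controls, 0.053 with the mean of probe sets), Pfkfb2 (0.031 with that mean) and Tkt (-0.044 with quantile normalization). The pair Slc2a1/Slc2a3 turned to 0.35 without probe sets open to cross-hybridisation, and Pfkp/Pfkl to -0.0052 with both arrays numbered 2 left out. With 1 array out the ranges crossing 0 were -0.095 to 0.068 for Pfkfb4, -0.058 to 0.023 for Pdha1, -0.0021 to 0.092 for Tkt, -0.016 to 0.24 for Taldo1, -0.18 to 0.48 for Slc16a3, -0.012 to 0.25 for Pdk1/Pdk2, -0.033 to 0.072 for Pfkp/Pfkl and -0.0087 to 0.15 for Pfkp/Pfkm. Pdk2 and Pdk4 are removed by the filter on the dimmest 50%, so that setting gives no value for them. The called genes of the further lists went through the same alternatives, a choice made after seeing the data, and 11 of 20 kept their calls with any 1 array out. A comparison of protein sequences within families was not run.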

Other observations

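Pyruvate that passes the dehydrogenase enters the tricarboxylic acid cycle, and 3 of 19 tested cycle genes rose after P4 while 0 fell, 15.8% beside 13% of all genes. Cs, citrate synthase, rose from 1430 ± 93.8 to 1954 ± 117 intensity units (log2 0.45 ± 0.08 SE, limma adjusted p 0.0117). Aco1, the cytosolic aconitase, rose by 0.53 ± 0.10 (adjusted p 0.0139), and Idh3a, a subunit of isocitrate dehydrogenase, by 0.58 ± 0.15 (0.0438). Cs lost its call without oil replicate 1 or 2 (adjusted p up to 0.058), Aco1 also without P4 replicate 2 (up to 0.0668), and Idh3a without any 1 array but P4 replicate 1 (up to 0.148).

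Among 21 tested genes of fatty acid oxidation and PPAR response, to which Pdk4 is functionally close, 0 rose and 3 fell, 14.3% beside 13% of all genes. Ppargc1a, a coactivator that drives mitochondrial genes, fell from 314 ± 31.4 to 133 ± 34.7 (-1.17 ± 0.18, adjusted p 0.00621). Acadm, an acyl-CoA dehydrogenase, fell by 0.55 on the log2 scale (adjusted p 0.00578) and Plin2, a lipid droplet coat protein, by 0.52 (0.0159). Plin2 lost its call without oil replicate 1 or 3 (up to 0.0667).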
